A study of Mus musculus with 6 samples.

Results

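The genes described here are the keratin-associated protein (Krtap) genes measured in mouse skin. They were taken as every gene whose symbol starts with Krtap among the probe sets that the platform annotation links to 1 gene symbol, and for each gene the probe set with the highest mean over the 6 arrays was used. This gave 38 Krtap genes of 18193 genes in all, in 22 numbered subfamilies. Keratin-associated proteins are small proteins of the hair fibre that surround the keratin filaments of the cortex and cuticle and bind them into a rigid matrix. High-sulfur and ultra-high-sulfur members carry many cysteines that form disulfide bonds with hair keratins, and glycine-tyrosine members are rich in those residues instead. Classes below were assigned by subfamily number and were not checked against protein sequence. In skin the genes are known for being switched on late, in the differentiating hair shaft of growing follicles, and for lying in clusters in the genome.

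Gene expression had been measured on single-channel arrays with biotin-labelled target, 1 array per sample, in 3 wild-type and 3 knock-in skin samples. All 6 are on a C57BL/6 background. The knock-in carries the genotype code KA and the source name KAB6, and the labels give neither the gene that was changed nor the age, sex, body site or hair cycle stage. Nothing says that the samples came from separate animals, so p-values measure only the spread between these 6 samples. In whole skin, fewer cells of a type and less RNA per cell cannot be told apart.

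On the log2 scale, Pearson's r over the genes tested lay between 0.975 and 0.985 for arrays of the same group and between 0.880 and 0.917 for arrays of different groups. The groups also differed in sex-linked signal. The wild-type arrays carried Y-linked Eif2s3y at 639 to 721 and Xist at 27.8 to 32.5, and the knock-in arrays carried them at 4.43 to 5.45 and at 3442 to 4005, so sex and genotype cannot be told apart in any value below. The ratio of 3' to 5' probe sets for actin was 1.22 to 1.28 in wild-type and 1.21 to 1.28 in knock-in. The 5' control for 18S ribosomal RNA ranged from 1314 to 2286 and from 166 to 766. The labelled tissue was checked against 8 markers of epidermis, and all 8 passed the filter on dim probe sets.

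Of the 38 Krtap genes, 37 passed that filter, which kept genes exceeding the median signal of an array on 3 or more arrays, and 36 were above it on all 6 arrays. Those 36 all fell in knock-in (limma, Benjamini-Hochberg adjusted p under the threshold of 0.05 over 11670 genes), and so did the remaining tested member, Krtap5-3, which passed the filter through the wild-type arrays alone and therefore had to differ. Among all genes tested, 16.3% were called lower and 14.8% higher. The median log2 difference over the 37 tested members was -2.11, a 4.30-fold lower signal, against -0.02 over all genes tested. On every one of the 37, the 3 knock-in arrays lay below the 3 wild-type arrays, a separation found for 25.1% of all genes tested. A difference of at least 4-fold among called genes was reached by 21 members, or 56.8%, against a background of 0.548%. Among the 36 members above the median on all 6 arrays it was reached by 20, or 55.6%. Differences ranged from -3.49 to -0.51 on the scale of log2(signal + 16), so the family moved in a single direction with a spread of sizes.

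**Figure D1:**
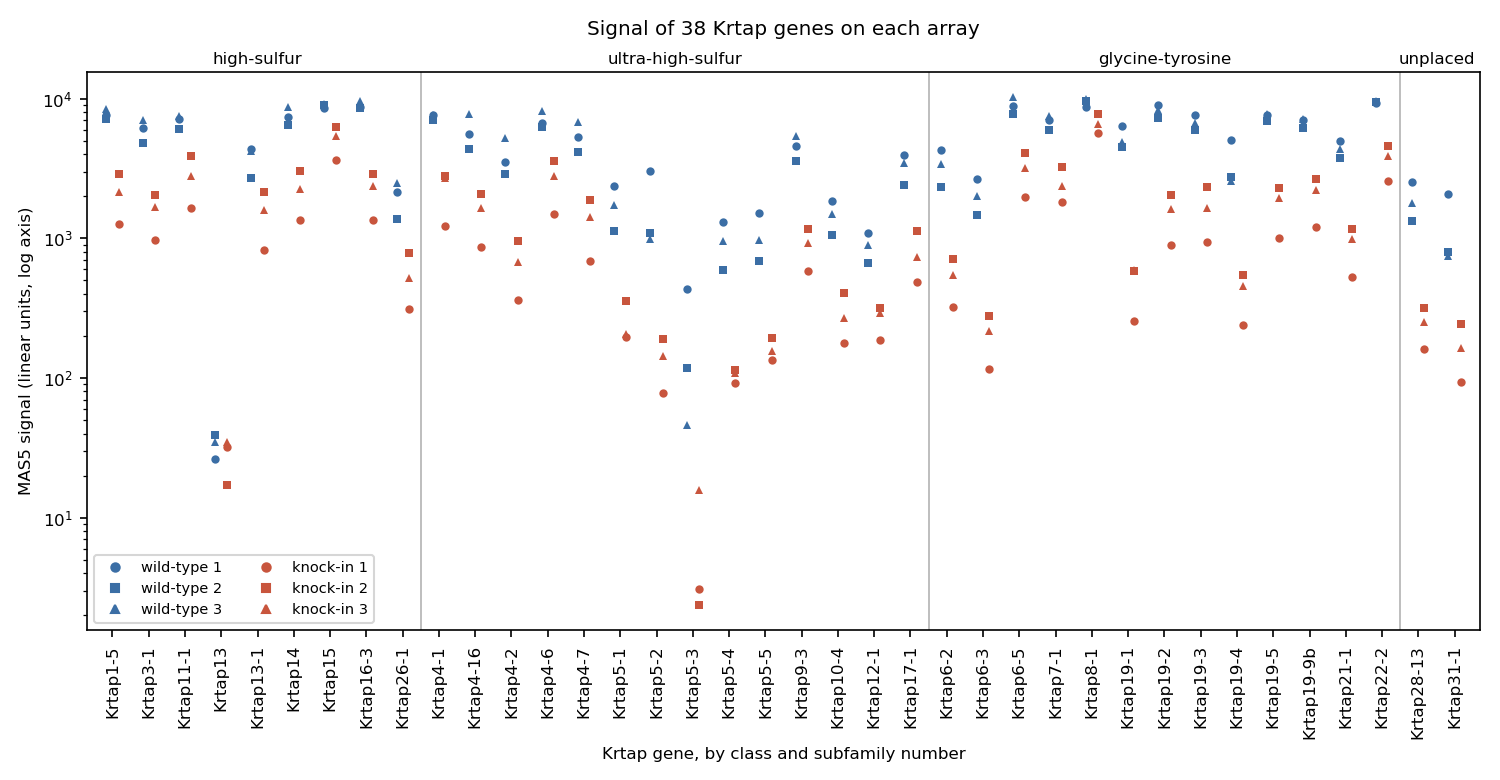
Signal of each of the 38 Krtap genes on each array, on a log axis, with wild-type arrays in blue and knock-in arrays in red and 1 symbol per replicate. Genes are ordered by class and subfamily number. The knock-in symbols lie below the wild-type symbols for 37 genes, and overlap for Krtap13.

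The single member left out by the filter was Krtap13 (probe set 1420358_at). Its signals were 26.4, 39.0 and 35.0 on the wild-type arrays and 31.8, 17.03 and 34.7 on the knock-in arrays. The groups overlapped, and all 6 values were below the array medians, which ran from 37.7 to 45.9. It is a different gene from Krtap13-1, which was bright and is described with the high-sulfur members.

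To show the regulatory sequence next to the measurements, the 250 bases before the annotated start are printed for the member with the lowest difference in each class, for Krtap8-1, the member that changed least, and for Krtap19-2, whose promoter is closest to that of Krtap19-1. Krtap8-1 and Krtap19-2 were chosen after their values were seen. Sequences are from RefSeq on GRCm38.p6, in 5' to 3' direction of the gene, and capitals mark matches to TATAAA and to the LEF1 motif in either orientation.
Krtap19-1, minus strand, chr16:88869411-88869660: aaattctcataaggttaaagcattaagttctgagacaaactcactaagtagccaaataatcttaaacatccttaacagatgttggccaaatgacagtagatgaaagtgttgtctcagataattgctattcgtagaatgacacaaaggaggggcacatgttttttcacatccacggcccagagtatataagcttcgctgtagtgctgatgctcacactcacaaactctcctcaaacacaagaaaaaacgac
Krtap19-2, minus strand, chr16:88874270-88874519: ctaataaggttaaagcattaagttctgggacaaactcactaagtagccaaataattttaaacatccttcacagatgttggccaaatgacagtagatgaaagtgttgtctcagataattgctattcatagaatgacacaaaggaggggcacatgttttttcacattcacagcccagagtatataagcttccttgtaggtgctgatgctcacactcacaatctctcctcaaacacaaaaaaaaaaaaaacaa
Krtap5-2, minus strand, chr7:142176006-142176255: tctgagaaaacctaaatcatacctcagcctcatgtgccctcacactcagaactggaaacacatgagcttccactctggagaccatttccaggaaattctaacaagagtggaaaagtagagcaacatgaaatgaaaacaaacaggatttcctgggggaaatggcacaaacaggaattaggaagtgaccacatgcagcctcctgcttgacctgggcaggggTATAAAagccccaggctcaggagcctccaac
Krtap16-3, minus strand, chr16:88962874-88963123: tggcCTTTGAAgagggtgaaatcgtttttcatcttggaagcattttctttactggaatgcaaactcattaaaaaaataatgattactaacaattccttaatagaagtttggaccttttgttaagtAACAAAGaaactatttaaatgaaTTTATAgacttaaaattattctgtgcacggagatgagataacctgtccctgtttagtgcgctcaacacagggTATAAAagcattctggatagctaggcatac
Krtap8-1, minus strand, chr16:89487953-89488202: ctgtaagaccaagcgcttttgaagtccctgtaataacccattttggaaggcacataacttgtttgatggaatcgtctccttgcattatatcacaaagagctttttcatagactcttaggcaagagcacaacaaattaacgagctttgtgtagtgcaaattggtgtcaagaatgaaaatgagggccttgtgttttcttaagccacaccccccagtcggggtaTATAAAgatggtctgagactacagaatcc

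A promoter was listed for 36 of the 38 genes by gene ID. TATAAA, the core of the TATA box that positions the start of transcription, was searched on both strands over the full 300 bases, 250 before and 50 after the start. It was present in 29 of 36 Krtap promoters (80.6%) and in 13.6% of all 32851 promoters of the same length. On the sense strand, with its first base between 40 and 20 bases before the start, it was present in 21 Krtap promoters (58.3%) against 1.99% of all promoters. LEF1, the Wnt effector of the hair matrix, was searched on both strands as CTTTGAA and as the same motif with its last pair of bases AT, TA or TT in place of AA. These were present in 15 Krtap promoters (41.7%) and in 16.9% of all. HOXC13, a homeodomain factor of the hair shaft, was searched on both strands as TTAATNAA, TTAATNAG, TTAATNGA, TTAATNGG, TTTATNAA, TTTATNAG, TTTATNGA and TTTATNGG. Its motif was present in 17 Krtap promoters (47.2%) and in 18.9% of all, and it overlapped a TATAAA match in 3. By class, LEF1 matches were in 7 of 9 high-sulfur, 3 of 13 ultra-high-sulfur and 3 of 12 glycine-tyrosine promoters. HOXC13 matches were in 7 of 9, 5 of 13 and 4 of 12. Of the 2 promoters of genes whose subfamily number gave no class, 2 held a LEF1 match and 1 a HOXC13 match. Both high-sulfur counts include Krtap16-3, whose class by number may differ from its class by neighbours. The 13 ultra-high-sulfur promoters include that of Krtap10-4, which held neither match and whose class by number was not checked. These motifs are rich in A and T, and all promoters were not matched to the Krtap promoters in base composition. A match describes the letters of these windows, and no binding was measured here.

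Promoters resembled each other little even within a subfamily. Global alignment gave a median identity of 52.3% over 39 pairs of the same subfamily and 48.5% over 591 pairs of different subfamilies. The exception was the pair Krtap19-1 and Krtap19-2, with 91.2% identity. In the sequences printed above, neither of this pair holds the exact letters TATAAA. Both hold the near match TATATAAG, and variants of TATAAA were not searched. Krtap5-2, Krtap16-3 and Krtap8-1 hold TATAAA 31, 30 and 29 bases before the start. Any relation between these matches and the size of the difference was not tested.

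Among the glycine-tyrosine members, which are known from the hair cortex, all 13 fell, with a median log2 difference of -2.16 and a range from -3.49 to -0.51. Krtap19-1 (1427801_at) had the lowest difference of all members. Its signals were 6323, 4501 and 4906 on the wild-type arrays and 255, 581 and 595 on the knock-in arrays, means of 5244 ± 957 and 477 ± 193 (SD, n = 3 per group). The lowest wild-type value was 7.56 times the highest knock-in value, the widest gap of any tested member. The log2 difference was -3.49 ± 0.29 (SE, limma adjusted p = 0.000104). A second Krtap19-1 probe set (1427800_at) was dimmer, with 343, 451 and 393 in wild-type and 141, 240 and 173 in knock-in. It did not overlap between the groups either, but its log2 difference was -1.06, and the mean over both probe sets gave -2.28.

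The other Krtap19 genes showed the same direction. Krtap19-4 (1426203_at) went from 5060, 2754 and 2580 in wild-type to 241, 544 and 458 in knock-in, a log2 difference of -3.02 ± 0.32 (adjusted p = 0.000346). Wild-type replicate 1 stood above the other 2 wild-type arrays for this gene. Krtap19-9b (1420415_at) had the smallest difference of the subfamily, with 7089, 6125 and 7126 in wild-type and 1209, 2648 and 2209 in knock-in, and a difference of -1.81 ± 0.25 (adjusted p = 0.00114). The wild-type values were close together, and the knock-in values differed 2.19-fold among themselves. Krtap19-2, Krtap19-5 and Krtap19-3 lay between these, at -2.49, -2.16 and -2.12. Krtap19-1 and Krtap19-2, the pair with like promoters, differed by -3.49 and -2.49 on the probe sets used, each with a standard error under 0.30. With the mean over both of its probe sets Krtap19-1 was at -2.28, so the order of the pair depends on the probe set. Whether like promoters go with like differences was not tested.

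The 3 Krtap6 genes differed in size of change. Krtap6-3 (1427842_at) had signals of 2657, 1477 and 2010 in wild-type and 116, 279 and 217 in knock-in, a log2 difference of -3.27 ± 0.30 (adjusted p = 0.000169). Krtap6-2 (1449919_at) went from 4267, 2324 and 3398 to 325, 713 and 549 (-2.64 ± 0.29, adjusted p = 0.000394). Krtap6-5 (1425237_at) changed least of the 3, with 8824, 7748 and 10220.0 in wild-type and 1986, 4089 and 3208 in knock-in, and fell by 1.58 ± 0.24 (adjusted p = 0.00168). All of these values separated the groups completely. A dim second probe set of Krtap6-3 (1452575_at) read 77.2, 24.2 and 75.0 in wild-type and 4.10, 23.3 and 16.5 in knock-in, where wild-type replicate 2 and knock-in replicate 2 nearly met. It gave a log2 difference of -1.24, and the mean over both probe sets gave -2.26 (adjusted p = 0.00185).

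The remaining glycine-tyrosine members each stood alone in their subfamily. Krtap21-1 (1421691_at) went from 5015, 3787 and 4359 to 530.0, 1168 and 996, a difference of -2.33 ± 0.26 (adjusted p = 0.000399). Krtap7-1 (1432540_at) went from 7048, 6008 and 7545 to 1830.0, 3236 and 2383 (-1.49 ± 0.19, adjusted p = 0.000805). Krtap22-2 (1458467_at) had nearly equal wild-type values of 9286, 9458 and 9663, and 2594, 4567 and 3897 in knock-in (-1.40 ± 0.18, adjusted p = 0.000922). In these genes knock-in replicate 1 was the lowest array and knock-in replicate 2 the highest knock-in array.

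Krtap8-1 (1427211_at), also of the glycine-tyrosine class, changed least. Its signals were 8762, 9607 and 9933 in wild-type and 5682, 7722 and 6608 in knock-in, means of 9434 ± 604 and 6670 ± 1022. The lowest wild-type array was 1.14 times the highest knock-in array, so the groups were only just apart. The log2 difference was -0.51 ± 0.12 (adjusted p = 0.0153). The call was lost without wild-type replicate 3 (adjusted p = 0.0653) and without knock-in replicate 3 (adjusted p = 0.0516), within a range of 0.00747 to 0.0653 over all alternatives.

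Ultra-high-sulfur members had a median log2 difference of -2.35, and all 14 fell, with differences from -3.37 to -1.502 and 10 of them at least 4-fold lower. Both counts include Krtap5-3, which passed the filter through the wild-type arrays alone. Krtap10-4 and Krtap12-1, whose class by number was not checked, are among the 14, and Krtap10-4 is among the 10. Krtap5 proteins are known from the hair cuticle, the outer layer of scales on the shaft. Krtap5-2 (1420452_at) had the lowest difference of the class. It read 3059, 1098 and 986 on the wild-type arrays and 78.1, 191 and 144 on the knock-in arrays. Its log2 difference was -3.37 ± 0.43 (adjusted p = 0.000785). Wild-type replicate 1 was 3.10 times the lowest wild-type array, and without that replicate the difference was -2.86 (adjusted p = 0.000749). Krtap5-4 (1422958_at) read 1320, 593 and 964 in wild-type and 91.3, 115 and 108 in knock-in, with a difference of -2.94 ± 0.25 (adjusted p = 0.000107). Its knock-in values were the tightest of the subfamily, 1.26-fold from lowest to highest. Krtap5-5 (1430728_at) read 1510, 690.0 and 978 in wild-type and 134, 192 and 156 in knock-in (-2.55 ± 0.25, adjusted p = 0.000236), the smallest difference among the 5 Krtap5 genes.

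Krtap5-3 (1454191_at), named after its values were seen, was the dimmest tested member. It read 434, 119 and 46.2 in wild-type and 3.10, 2.37 and 15.7 in knock-in. The wild-type arrays differed 9.38-fold among themselves, and all knock-in values were below the array medians. Its log2 difference of -2.80 ± 0.61 (adjusted p = 0.00912) was -4.46 with an offset of 1 and -1.61 with an offset of 64 in place of 16. Its size is therefore not well set by these arrays.

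Krtap4 and Krtap9 proteins are ultra-high-sulfur proteins of the hair cortex. Krtap4-2 (1421494_at) read 3535, 2891 and 5199 in wild-type and 363, 951 and 677 in knock-in, a log2 difference of -2.58 ± 0.33 (adjusted p = 0.000789). Krtap4-7 (1430669_at) went from 5334, 4166 and 6799 to 683, 1875 and 1431 (-2.11 ± 0.33, adjusted p = 0.00219). Krtap4-6 (1431650_at) went from 6679, 6280.0 and 8212 to 1491, 3572 and 2808 with a difference of -1.502 ± 0.28 (adjusted p = 0.00452), the smallest difference of the class. In each of these, wild-type replicate 3 was the highest array. Krtap9-3 (1449963_at) went from 4551, 3570.4 and 5442 to 580.2, 1160 and 925 (-2.36 ± 0.24, adjusted p = 0.000278).

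Krtap10-4 (1431165_at) and Krtap12-1 (1450535_at) belong to subfamilies known from the cuticle. They were put in the ultra-high-sulfur class by number alone, and that class was not checked. Krtap10-4 read 1864, 1063 and 1482 in wild-type and 179, 405 and 267 in knock-in, a difference of -2.34 ± 0.28 (adjusted p = 0.000587). Krtap12-1 read 1092, 669 and 889 in wild-type and 186, 318 and 290.2 in knock-in (-1.68 ± 0.22, adjusted p = 0.000903). A second Krtap12-1 probe set (1450536_s_at), of almost the same mean brightness, read 1332, 626 and 1029 in wild-type and 96.2, 201 and 159 in knock-in, a difference of -2.58. The probe sets of this gene thus separate the groups alike but disagree on the size. Krtap17-1 (1453523_at) went from 3972, 2418 and 3449 to 486, 1132 and 729 (-2.10 ± 0.29, adjusted p = 0.00110).

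High-sulfur members had the smallest median difference of the classes, a gap between classes that was not tested. The median log2 difference of the 8 tested was -1.87, and 1 of 8 was at least 4-fold lower. That gene, Krtap16-3 (1427549_s_at), read 8748, 8631 and 9566 in wild-type and 1346, 2909 and 2386 in knock-in, a difference of -2.08 ± 0.24 (adjusted p = 0.000510). A second Krtap16-3 probe set (1425431_at) gave -2.57, with 6467, 5402 and 6559 in wild-type and 651, 1465 and 1101 in knock-in. In RefSeq, Krtap16-3 lies among Krtap19 and Krtap6 genes, so its class by number may differ from its class by neighbours. Without it, the high-sulfur members ranged from -1.99 to -0.84. Krtap10-4, at -2.34, was put in the ultra-high-sulfur class by number alone. If counted as high-sulfur it would have the lowest difference here.

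Krtap3-1 (1427366_at) and Krtap1-5 (1449560_at), high-sulfur proteins of the cortex, had differences of -1.99 ± 0.26 and -1.95 ± 0.25 (adjusted p = 0.000818 and 0.000851). Krtap3-1 read 6218, 4788 and 7034 in wild-type and 968, 2036 and 1664 in knock-in. Krtap1-5 read 7655, 7209 and 8470.0 in wild-type and 1271, 2908 and 2135 in knock-in. These 2 genes gave almost the same difference and the same order of arrays. Krtap26-1 (1429957_at) went from 2159, 1373 and 2509 to 312, 786 and 523 (-1.92 ± 0.32, adjusted p = 0.00275), and Krtap14 (1419707_at) from 7336, 6478 and 8731 to 1351, 3039 and 2265 (-1.82 ± 0.26, adjusted p = 0.00134). Krtap11-1 (1439100_s_at) went from 7174, 6036 and 7469 to 1649, 3904 and 2797 (-1.38 ± 0.27, adjusted p = 0.00525).

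Krtap13-1 and Krtap15 showed the weakest separation of the class. Krtap13-1 (1428007_at) read 4333, 2686 and 4244 in wild-type and 831, 2142 and 1590.4 in knock-in. The lowest wild-type array was 1.25 times the highest knock-in array. Its log2 difference was -1.36 ± 0.32 (adjusted p = 0.0132), and the call was lost without wild-type replicate 3 (adjusted p = 0.0570, within a range of 0.00459 to 0.0570 over all alternatives). Krtap15 (1419507_at) read 8615, 8940 and 9203 in wild-type and 3666, 6227 and 5377 in knock-in, a difference of -0.84 ± 0.18 (adjusted p = 0.00761). Its wild-type values were within 1.07-fold of each other.

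For a pair of members the subfamily number gave no class. Krtap28-13 (1422298_at) read 2540, 1326 and 1805 in wild-type and 162, 318 and 250 in knock-in, a log2 difference of -2.88 ± 0.27 (adjusted p = 0.000184). Krtap31-1 (1430296_at) read 2071, 795 and 744 in wild-type and 93.3, 245 and 165 in knock-in, a difference of -2.65 ± 0.41 (adjusted p = 0.00206). Wild-type replicate 1 was 2.79 times the lowest wild-type array for Krtap31-1, and without it the difference was -2.18.

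**Figure D2:**
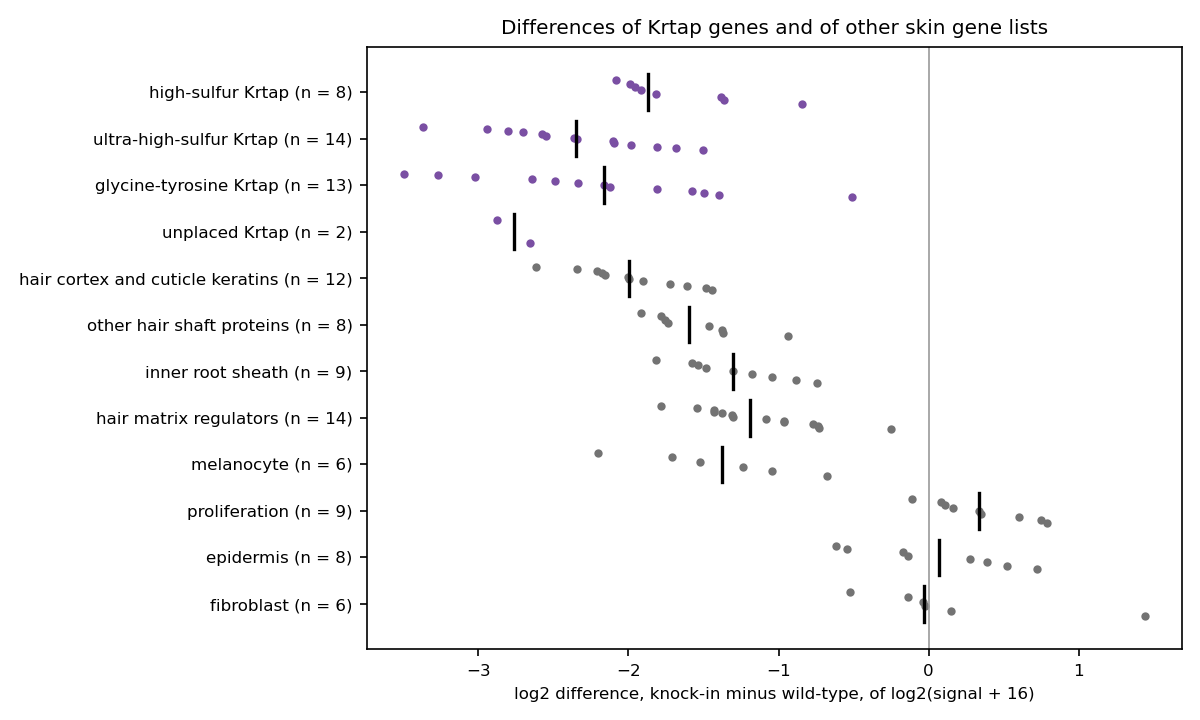
The log2 difference (knock-in minus wild-type) of each tested gene, for Krtap classes in purple and for other skin gene lists in grey, with a black bar at each median. Krtap medians lie between -2.76 and -1.87, hair keratins at -1.998, the inner root sheath at -1.30, and epidermis and fibroblast genes near 0.

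The size of the difference followed the brightness of the probe set. Over the 37 tested members, Spearman's rho between the wild-type mean and the log2 difference was 0.62 (Pearson's r 0.54 on the log2 scale), so brighter members fell less. These are genes of the same 6 arrays, whose differences are computed from the same wild-type values, and rho is given as a description. It was 0.55 over the 31 members with a wild-type mean below 8000 and 0.67 over the 34 at 1000 or above. The 8 members with a wild-type mean from 1000 to 3000 had a median of -2.68, and the 6 above 8000 had a median of -1.49. The latter reached 65.2% to 75.1% of the brightest probe set of their arrays. Krtap8-1 and Krtap15 are among these 6, but so are Krtap19-2 and Krtap16-3, at -2.49 and -2.08. For the 12 hair keratins rho was 0.58, and over all 1907 genes called lower it was 0.02. Whether bright probe sets respond in proportion to RNA was not tested.

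**Figure D3:**
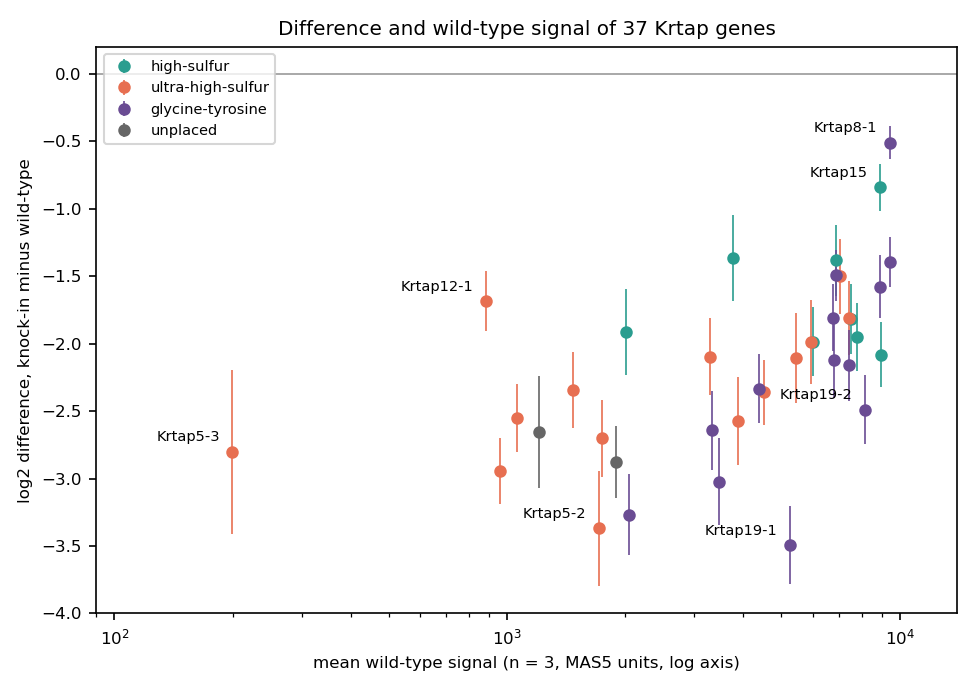
Log2 difference of the 37 tested Krtap genes (vertical axis, bars are standard errors) against the mean wild-type signal (horizontal log axis), coloured by class. Brighter members lie higher, with Krtap8-1 at -0.51 and Krtap15 at -0.84, while Krtap19-2 at -2.49 is also bright.

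Within each group the members also moved together from array to array. Knock-in replicate 1 was the lowest knock-in array for 36 of 37 members and knock-in replicate 2 the highest for 35. Among all genes tested those shares were 37.4% and 36.2%. In wild-type, replicate 2 was the lowest array for 30 members and the highest for 0. The highest wild-type array was replicate 3 for all 5 Krtap4 genes and for 7 of 8 high-sulfur members, and replicate 1 for all 5 Krtap5 genes. Krtap19 and Krtap6 were split, with 4 of 6 and 2 of 3 genes highest on replicate 1 and the others on replicate 3. Over all genes tested replicate 1 was highest for 34.5% and replicate 3 for 29.2%, and the difference between subfamilies was not tested. On average Krtap5 genes stood 0.83 above their group mean (log2) on wild-type replicate 1 and 0.36 below it on replicate 3. Krtap4 genes stood 0.03 below and 0.31 above on the same arrays. Members share these arrays and may share probe sequence, so the counts describe 6 arrays and are not independent.

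**Figure D4:**
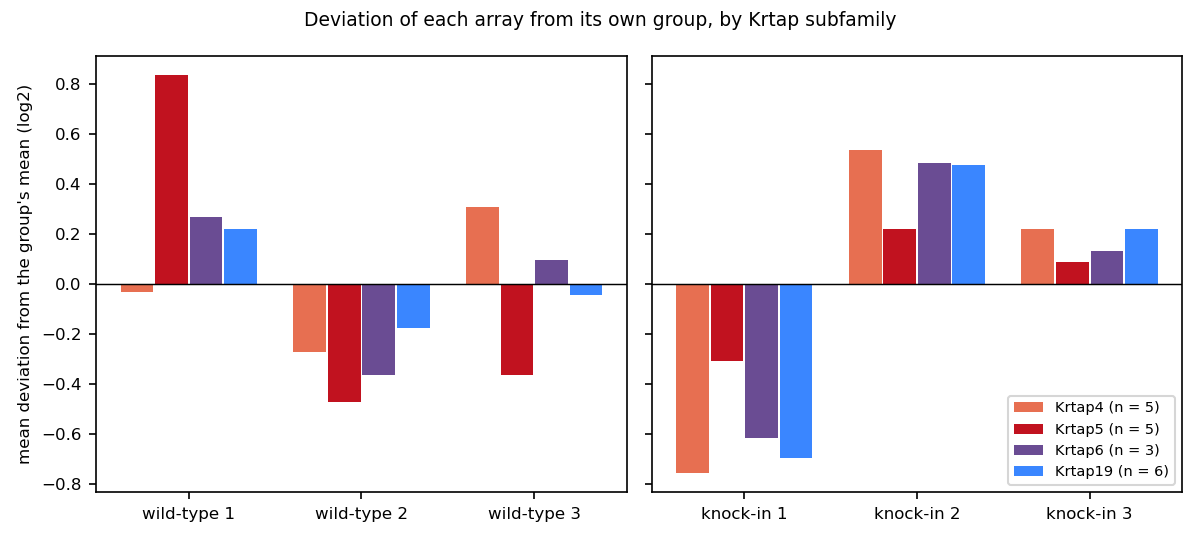
Mean deviation (log2) of each array from the mean of its own group, for the 4 Krtap subfamilies with 3 or more tested genes. Krtap5 is high on wild-type replicate 1 (0.83) and Krtap4 on wild-type replicate 3 (0.31), while all 4 subfamilies are low on knock-in replicate 1 and high on knock-in replicate 2.

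Position in the genome, taken from the order of protein-coding genes in RefSeq (GRCm38.p6), placed the 38 genes in 7 blocks when at most 10 other genes were allowed between neighbours. The 5 neighbouring Krtap5 genes ran from -3.37 to -2.55, and all 5 were at least 4-fold lower at the offset of 16. That count includes Krtap5-3, which passed the filter through the wild-type arrays alone and was at -1.61 with an offset of 64. The median of the 5 genes, -2.80, is the value of Krtap5-3, whose size depends on the offset. The block of 10 genes with Krtap1, 3, 4, 9, 17 and 31 members had a median of -2.04. The block of 15 genes with Krtap19, 13, 14, 15, 16, 22, 26 and part of Krtap6 had a median of -1.999 over 14 tested, and ran from -3.49 to -0.84. The block with Krtap7-1, Krtap8-1, Krtap11-1, Krtap21-1 and Krtap6-2 had a median of -1.49. Krtap28-13, Krtap12-1 and Krtap10-4 each stood alone.

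Other genes of the hair shaft and follicle were taken from lists. The hair cortex and cuticle keratins are the filament proteins that Krtap proteins bind, and 12 of 13 listed were measured. All 12 fell, with a median log2 difference of -1.998. Krt84 went from 271, 161 and 314 to 21.2, 44.7 and 41.3 (-2.34 ± 0.26, adjusted p = 0.000438). Krt35 went from 3753, 2083 and 2956 to 425, 889 and 583 (-2.21 ± 0.28), and Krt33b from 6158, 4071 and 5552 to 748, 1706 and 1144 (-2.17 ± 0.27). Their arrays fell in the order seen for Krtap genes, with knock-in replicate 1 lowest and knock-in replicate 2 the highest knock-in array. All 8 measured members of a list of other hair shaft proteins fell (median -1.60), among them Padi3 (-1.92), which deiminates hair proteins, S100a3 (-1.74), a calcium-binding protein of the cuticle, and Lef1 (-1.37). Lef1, a transcription factor and no structural protein, is also among the matrix regulators, so its probe set counts in both lists.

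The inner root sheath moulds the growing shaft and is not built from Krtap proteins. All 9 measured genes of that list fell, with a median of -1.30. Gata3, a regulator of the sheath, went from 678, 737 and 853 to 343, 348 and 381 (-1.04 ± 0.11, adjusted p = 0.000276). Tchh (-0.89), the trichohyalin of sheath and medulla, and Krt26 (-1.82) fell as well. Of 14 hair matrix regulators 13 fell, with a median of -1.19, and Vdr (-0.25) did not pass. Bmp4 (-1.31 ± 0.19), a growth factor of the dermal papilla and matrix, and Msx2 (-1.43 ± 0.21), a homeobox gene of the matrix, were among them. Hoxc13, whose motif was searched above and which was named after its values were seen, fell by 1.78 ± 0.28, from 647, 381 and 662 to 103, 228 and 135 (adjusted p = 0.00229). Of the 9 measured proliferation genes, 0 were called lower and 2 higher, Birc5 (0.79) and Cdk1 (0.75). The latter count was 1 without wild-type replicate 2 or knock-in replicates 2 or 3, 0 without wild-type replicate 3 and 4 without wild-type replicate 1.

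The Krtap genes were set against these lists array by array, with no test of the gap. The mean log2 signal of the tested Krtap genes minus that of the hair keratins was 0.64, 0.84 and 0.64 on the wild-type arrays and 0.49, 0.48 and 0.57 on the knock-in arrays. The groups did not overlap, but the gap was small, with a difference of -0.19 and a replicate SD of 0.09. Without wild-type replicate 2 that difference was -0.13. Against the inner root sheath the same quantity was -0.03, -0.39 and -0.52 in wild-type and -1.35, -1.15 and -1.07 in knock-in. The difference was -0.88 with a replicate SD of 0.21, and the brightness of the probe sets was not adjusted for. The groups were well apart on this measure. Only the change between groups is read here, since probe sets of different genes do not share a scale.

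**Figure D5:**
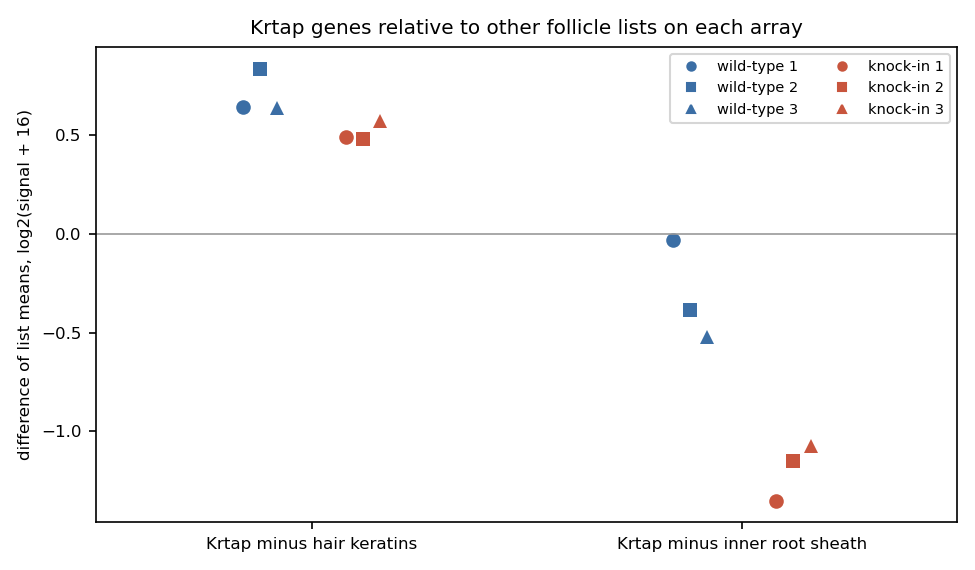
Mean log2(signal + 16) of the 37 tested Krtap genes minus that of 12 hair keratins and of 9 inner root sheath genes, with 1 symbol per array. Knock-in arrays (red) lie below wild-type arrays (blue) in both, narrowly against hair keratins and by 0.88 on average against the inner root sheath.

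Markers of other skin cells moved between the same groups, and their part in the Krtap result was not tested. The summed signal of the 5 measured neutrophil markers (of 6 listed) was 533 to 761 in wild-type and 14405 to 18549 in knock-in, and all 5 were called higher. Mmp8, Csf3r and Cxcr2 were below the array medians in wild-type and passed the filter through the knock-in arrays alone, so they had to differ. S100a9 and S100a8, calcium-binding proteins abundant in neutrophils, were above the medians on all 6 arrays and rose by 5.72 and 4.26 (log2). These 2 genes held most of the summed signal, with knock-in means of 6054.9 and 9373.5. Which cells gave their signal was not tested. The summed signal of 6 melanocyte markers was 1981 to 4428 in wild-type and 756 to 1399 in knock-in, and 5 of 6 fell, a count that was 3 without knock-in replicate 1 or 3. Skeletal muscle markers summed to 27165 to 42654 and to 15497 to 24263, and 4 of 5 fell. Of 7 genes listed for the outer root sheath and companion layer 4 fell, among them Krt75 (-1.85), and 3 rose, Krt6a (1.18), Krt6b (4.66) and Krt16 (3.64). In whole skin the layer that gave these signals was not measured. By contrast, 6 fibroblast markers summed to 34889 to 44898 and to 36762 to 42031, with 1 called lower and 1 higher. The former was lost without wild-type replicate 2 or 3 and without knock-in replicate 2 or 3. The 8 epidermis markers summed to 40630.0 to 47086 and to 44116 to 58572, with 1 lower (Ivl, -0.54) and 2 higher (Krt14, 0.73, and Krt5, 0.52). Without knock-in replicate 1 the count of lower epidermis markers was 2, and without knock-in replicate 3 it was 0. The 3 measured adipocyte markers summed to 7874 to 11266 and to 10636 to 12310.0, with 1 of 3 called higher, a call lost without knock-in replicate 3, and 1 called lower without wild-type replicate 1.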

How the data were processed

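RNA of 6 skin samples had been extracted with TRIzol and hybridised to single-channel arrays, per the labels' protocols. The authors deposited a MAS5 intensity for each probe set, per the submitters' processing notes, with version, settings and detection calls not given in the sources used here. The deposited arrays shared a 2% trimmed mean of 150, and no scaling was added. Probe sets with several gene symbols or none, and 64 controls, were left out, and all 38 Krtap symbols matched RefSeq by gene ID. Tests used the log2 of the signal plus an offset of 16, in limma 3.58.1 under R 4.3.3 (lmFit, eBayes with a mean-variance trend, two-sided) on all 11670 genes above the array median on at least 3 arrays, with Benjamini-Hochberg adjustment over those genes. The offset understates changes of dim genes. Krtap genes of a subfamily can be near-identical, so a probe set may read more than its own gene. The members and lists were chosen with earlier results of these data known. Classes were assigned by subfamily number: 1, 3, 11, 13 to 16 and 26 as high-sulfur, 4, 5, 9, 10, 12 and 17 as ultra-high-sulfur, and 6 to 8, 19, 21 and 22 as glycine-tyrosine. No protein sequence was available to check a class against its cysteine, glycine or tyrosine content. Named members are the 2 lowest and the highest of each subfamily and those not called or not tested. In each other list up to 3 genes with the smallest unadjusted p were named, with others given as examples after their values were seen. On simulated arrays of 11670 genes with this comparison's spread, 82% of genes changed by 1 (log2) and 94% of those changed by 2 were recovered. Alternatives were other offsets, filters, scalings, variance priors, probe set rules, array weights, a replicate block and leaving out each array. The number of arrays limits the precision.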

Additional observations from a re-analysis of the deposited data

How the results depend on the processing

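Krtap results changed little with the processing. Over 18 alternatives the number of Krtap genes called lower ran from 35 to 37, the number called higher was 0, and the median log2 difference ran from -2.40 to -1.77, both ends with an array left out. Of the 37 members 35 kept their call in every alternative that tested them, the exceptions being Krtap8-1 and Krtap13-1, and 0 changed direction. The number of all genes called lower, 1907, was 1264 with the replicate number as a block and 1230 to 1753 with an array left out, the lowest without wild-type replicate 3. The labels do not say that replicate numbers pair the samples. Deviations of same-numbered arrays correlated at -0.25, -0.41 and -0.02, and those of other pairs at -0.10 to 0.35. These deviations are centred within groups of 3 arrays and cannot settle whether samples were paired. With the block, no Krtap call was lost. The median over all genes tested, -0.02, was 0.0054 after quantile normalization. The mean over probe sets moved Krtap19-1 to -2.28 and Krtap6-3 to -2.26, and the offset moved Krtap5-3 to between -4.46 and -1.61. Differences against hair keratins and the inner root sheath were added after the data were seen, and ran from -0.25 to -0.13 and from -0.98 to -0.74. Signal near the array median limits Krtap13 and Krtap5-3.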

Other observations

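The 6 probe sets whose annotation names a Krtap gene together with other genes were not counted as members, and they behaved like them. In all 6 the knock-in arrays lay below the wild-type arrays, with log2 differences from -2.70 to -1.66. The probe set for Krtap6-1 and 2 further loci (1451859_at) read 7012, 6397 and 7469 in wild-type and 1355, 3165 and 2336 in knock-in. The probe set for Krtap2-4 and 2 predicted genes (1430731_at), from a high-sulfur subfamily with no member of its own, read 4828, 3478 and 5550.4 in wild-type and 665, 1556 and 1344 in knock-in, a difference of -2.01 with no test. Of 2 probe sets shared by Krtap3-2 and Krtap3-3, the dim 1430625_at differed by -2.70 and the bright 1452957_at by -1.76. Their wild-type means were 253 ± 87.3 and 5795 ± 754 (SD, n = 3).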
